A study of Mus musculus with 84 samples.

Results

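The UDP-glucuronosyltransferases (Ugt enzymes) of mouse liver were followed through 10 genes, Ugt1a1, Ugt1a6a, Ugt2a3, Ugt2b1, Ugt2b5, Ugt2b34, Ugt2b35, Ugt2b36, Ugt3a1 and Ugt3a2, chosen by symbol among the 17695 genes of the count table. Male B6C3F1 mice, 8 weeks old, ate AIN-93G diet alone (control) or with one of 3 organophosphate pesticides (OPPs) for 7 days. The OPPs were fenthion (FT) at 2.5, 5, 10 or 20 ppm, methidathion (MT) at 10, 25, 50 or 100 ppm and parathion (PT) at 20, 40 or 80 ppm. With the control these made 12 groups of 7 mice. The paper states that a higher PT dose was left out because many of its mice fell ill or died. It also states that body weight and relative liver weight were reduced at PT 40 and 80 ppm. RNA from frozen liver tissue of each mouse was measured by TempO-Seq, an assay that counts pairs of detector oligos ligated on their target transcript. The mice came in experimental blocks numbered 1, 3 and 4, which gave each group 2, 3 and 2 animals, and the RNA of 7 of the 84 mice was isolated at the EPA (2 control, 2 FT 20 ppm, 2 MT 100 ppm and 1 MT 10 ppm mouse) and that of the other 77 at EA, a contract laboratory.

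Ugt enzymes sit in the endoplasmic reticulum of hepatocytes and join a sugar, in most cases glucuronic acid from UDP-glucuronate, to a lipid-soluble acceptor, which makes the product soluble enough for export into bile or blood. Ugt1a1 conjugates bilirubin, the breakdown product of haem, and Ugt1a6a conjugates small planar phenols such as para-nitrophenol, which is also the phenol released when parathion is hydrolysed. Genes of the Ugt2 family act mainly on steroids, bile acids and drugs, whereas the Ugt3a enzymes use other sugar donors. Fenthion and methidathion are O,O-dimethyl esters and parathion is an O,O-diethyl ester. Transcription of several Ugt genes is known to respond to the receptors CAR (Nr1i3), PXR (Nr1i2), PPARα and the aryl hydrocarbon receptor.

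The Ugt1a enzymes share most of their sequence. Ugt1a1 (chromosome 1, 88139679 to 88147724 of GRCm39, plus strand) and Ugt1a6a (88062222 to 88147724) each have a first coding exon of their own. That exon encodes the part that binds the acceptor and is joined to the same 4 coding exons. The 735 bases of these 4 exons were identical in the 8 Ugt1a transcripts compared. The joins of the first coding exon to the shared second coding exon (88142766 to 88142897) are shown because they are where one Ugt1a transcript becomes the same as another. Lower case gives the last 30 bases of the first coding exon and capitals the first 30 bases of the shared exon, read from GRCm39.
Ugt1a1: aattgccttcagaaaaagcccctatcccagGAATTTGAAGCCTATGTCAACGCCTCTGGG
Ugt1a5: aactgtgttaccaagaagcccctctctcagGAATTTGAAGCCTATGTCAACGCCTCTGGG
Ugt1a6a: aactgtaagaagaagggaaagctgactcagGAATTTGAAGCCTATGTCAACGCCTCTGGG
Ugt1a6b: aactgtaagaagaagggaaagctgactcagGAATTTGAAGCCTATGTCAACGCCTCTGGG
Ugt1a6a and Ugt1a6b carried the same 60 bases, and their whole first coding exons were 97.0% identical, whereas those of Ugt1a1 and Ugt1a6a were 59.4% identical. Of all 50-base windows of the Ugt1a1 transcript, 71.3% occurred in another Ugt1a transcript, and of Ugt1a6a 81.4%. The deposited counts were estimates that divide such reads, so that Ugt1a6a had a fractional count in 100% of the mice and Ugt1a1 in 91.7%. The Ugt1a rows were therefore read together with their sum, and which stretch of each transcript the oligos bind was not known here.

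The other genes lay apart from that locus. Ugt2b34 (chromosome 5, 87037626 to 87054814), Ugt2b1 (87064497 to 87074389), Ugt2b35 (87148701 to 87161742), Ugt2b36 (87212668 to 87240422), Ugt2b5 (87272226 to 87288211) and Ugt2a3 (87472734 to 87485055) formed one cluster, on the minus strand except Ugt2b35. Ugt3a2 (chromosome 15, 9276974 to 9315118) and Ugt3a1 (9335636 to 9371564) were neighbours on the plus strand with coding sequences 93.3% identical. Ugt2b5 shared 31% of its 50-base windows with Ugt2b36, Ugt2b37 or Ugt2b38 and was 97.0% identical to Ugt2b38 in coding sequence, so reads could be split between these genes. Fractional counts occurred in 16.7% of the mice for Ugt2b5, 5.95% for Ugt2b36, 3.57% for Ugt2b38 and 96.4% for Ugt2b37. No window of Ugt2b1 or Ugt2b35 was shared with another Ugt gene, and the remaining members shared at most 8.88% of theirs.

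At 80 ppm, the highest parathion dose kept, the bilirubin-conjugating gene Ugt1a1 rose 2.16-fold and Ugt2b1 fell to 0.53 of the control level. No change of the other 8 genes passed the test. Ugt1a1 ranged from 746.1 to 1734 CPM (counts scaled to a fixed library total), with a median of 883.4 CPM, in the 7 control mice, and from 1591 to 3158 CPM, median 2255 CPM, in the 7 mice at PT 80 ppm. The ranges overlapped through a single mouse on each side, the highest control and the lowest PT 80 ppm mouse, and 6 of 7 dosed mice lay above every control. The log2 fold change was 1.11 (SE 0.106, adjusted p = 1.29e-12), from a quasi-likelihood fit in edgeR that allowed for block and isolating laboratory, with Benjamini-Hochberg adjustment over 10415 genes. Here and below a gene was called where the adjusted p was under 0.05. In this comparison 18.6% of all genes tested were called (9.73% higher and 8.89% lower), and the 10 Ugt genes had 1 call in each direction, shares close to those over all genes. The median log2 fold change was 0.05 over the 10 Ugt genes and 0.01 over all genes.

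**Figure D1:**
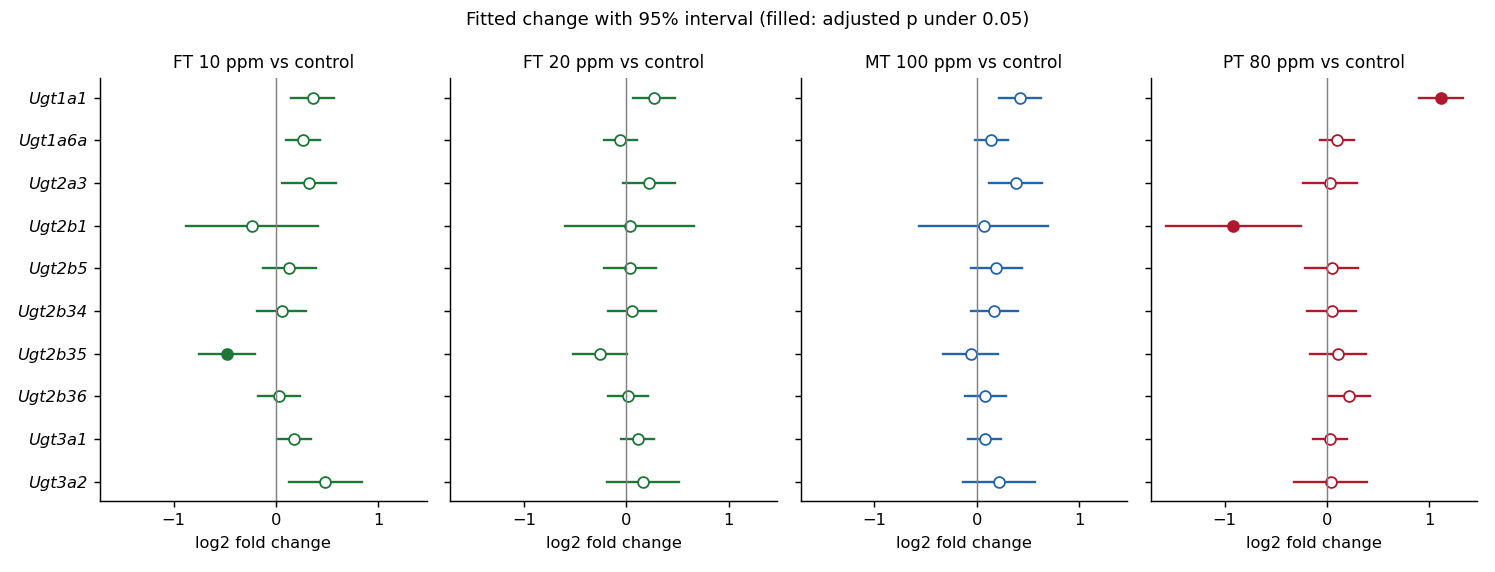
Fitted log2 fold change against control (horizontal axis, log2 units) of each of the 10 Ugt genes at FT 10, FT 20, MT 100 and PT 80 ppm, with bars for the 95% confidence interval over 7 mice a group. Filled points passed an adjusted p under 0.05, and these were Ugt1a1 (1.11) and Ugt2b1 (-0.92) at PT 80 ppm and Ugt2b35 (-0.48) at FT 10 ppm.

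Ugt2b1, of the steroid-conjugating family, was the most variable member, with a within-group SD of 0.673 on the log2 scale against 0.165 for Ugt1a6a, the least variable. Its level was 3.03 to 42.5 CPM (median 29.4) in control mice and 1.22 to 24.2 CPM (median 12.9) at PT 80 ppm. All 7 dosed mice lay below the control median, but the control range held 6 of them, since control replicate 1 was itself at 3.03 CPM. The log2 fold change was -0.92 (SE 0.330, adjusted p = 0.0411 from edgeR). That call was lost when any one of 9 of the 14 mice was left out, with a log2 fold change of -0.68 and an adjusted p of 0.164 from edgeR without control replicate 5. Without control replicate 1 the log2 fold change was -1.14 (adjusted p = 0.0053 from edgeR).

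The PT 80 ppm mice were also compared with the 14 mice at PT 20 and 40 ppm, a contrast that does not use the controls and in which 25.7% of all genes were called (13.3% higher and 12.4% lower). Ugt1a1 measured 928.7 to 1615 CPM (median 1056) at PT 20 ppm and 1282 to 1707 CPM (median 1387) at PT 40 ppm. It was 1.80-fold higher at 80 ppm than at the lower doses (log2 fold change 0.85, SE 0.0861, adjusted p = 6.67e-12 from edgeR). Ugt2b1 was 18.7 to 40.3 CPM at PT 20 ppm and 17.2 to 35.2 CPM at PT 40 ppm. Its log2 fold change against those doses was -0.94 (SE 0.291, adjusted p = 0.0118 from edgeR). It remained called whichever PT 80 ppm mouse was left out, though not within any block alone. The remaining 8 genes were not called. Leaving out single mice added calls in this contrast, since Ugt2b35 was called higher without PT 80 ppm replicate 1, 2 or 5 (log2 fold change 0.31 to 0.36), and Ugt2b36 without replicate 3 (0.24, adjusted p = 0.0378 from edgeR).

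**Figure D2:**
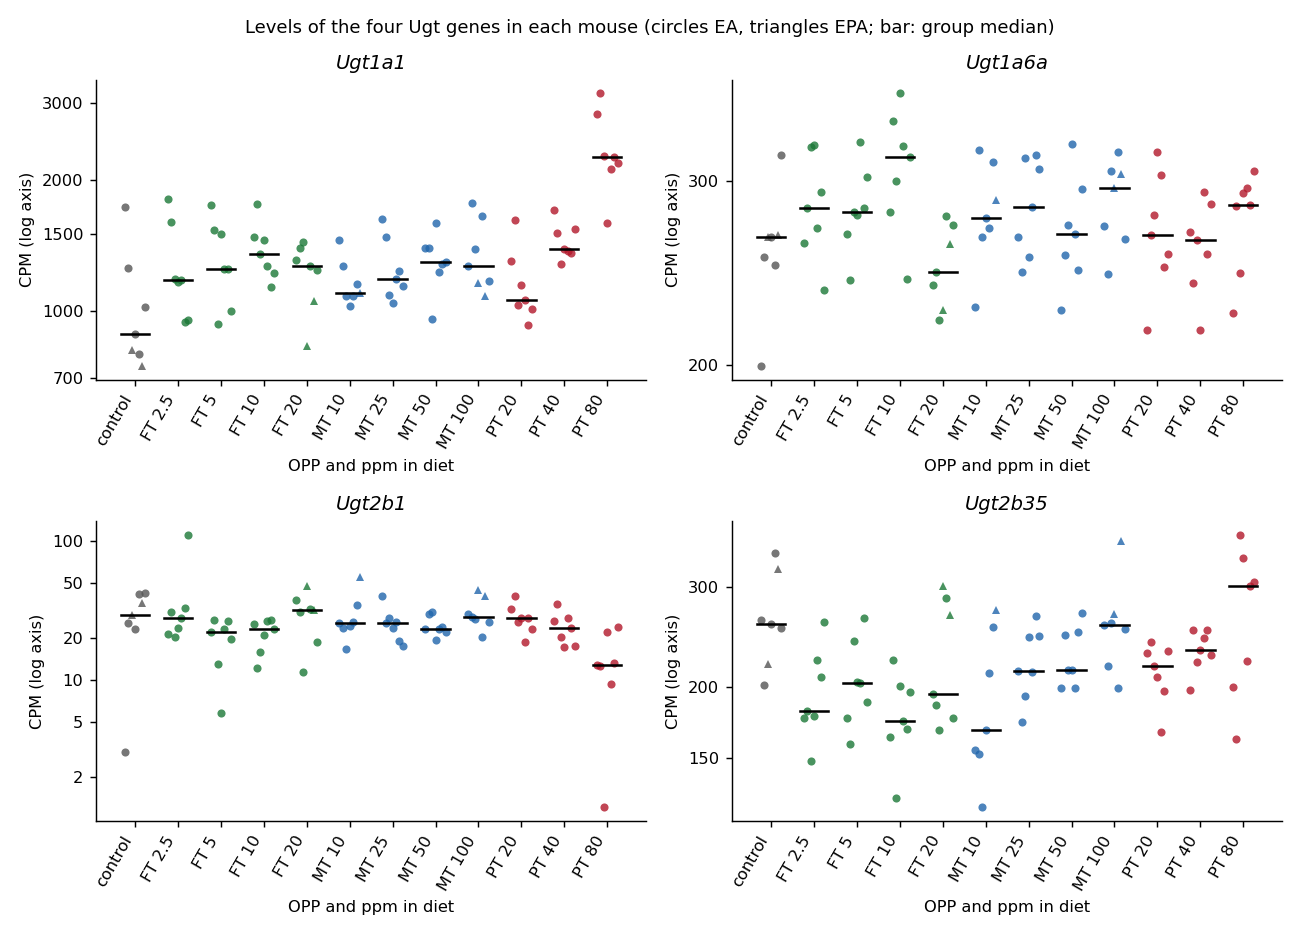
Level in each of the 84 mice (vertical log axes, CPM) of Ugt1a1, Ugt1a6a, Ugt2b1 and Ugt2b35 by OPP and dose in ppm, with circles for RNA isolated at EA, triangles for the EPA and a bar at each group median. The median of Ugt1a1 is highest at PT 80 ppm (2255 CPM) and lowest in control (883.4 CPM), whereas the medians of Ugt1a6a lie between 245.7 and 316.8 CPM.

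Ugt1a1 and Ugt1a6a, which end in the same exons, had different values at PT 80 ppm. Ugt1a6a was 199.4 to 318.1 CPM (median 265.2) in control mice and 224.3 to 307.2 CPM (median 284.9) at PT 80 ppm, so the dosed range lay wholly inside the control range. Its log2 fold change was 0.09 (95% interval -0.07 to 0.26, adjusted p = 0.477 from edgeR). The sum of all 9 Ugt1a rows was 1127 to 2231 CPM in control mice and 2018 to 3678 CPM at PT 80 ppm, a 1.83-fold rise (log2 fold change 0.87, SE 0.103, adjusted p = 1.45e-09 from edgeR). Ugt1a1 took 64.9 to 77.7% of the counts of the locus in control mice and 78.8 to 87.8% at PT 80 ppm, 2 ranges that did not overlap. These shares depend on how the estimation divided the shared reads and on the oligos of each gene.

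**Figure D3:**
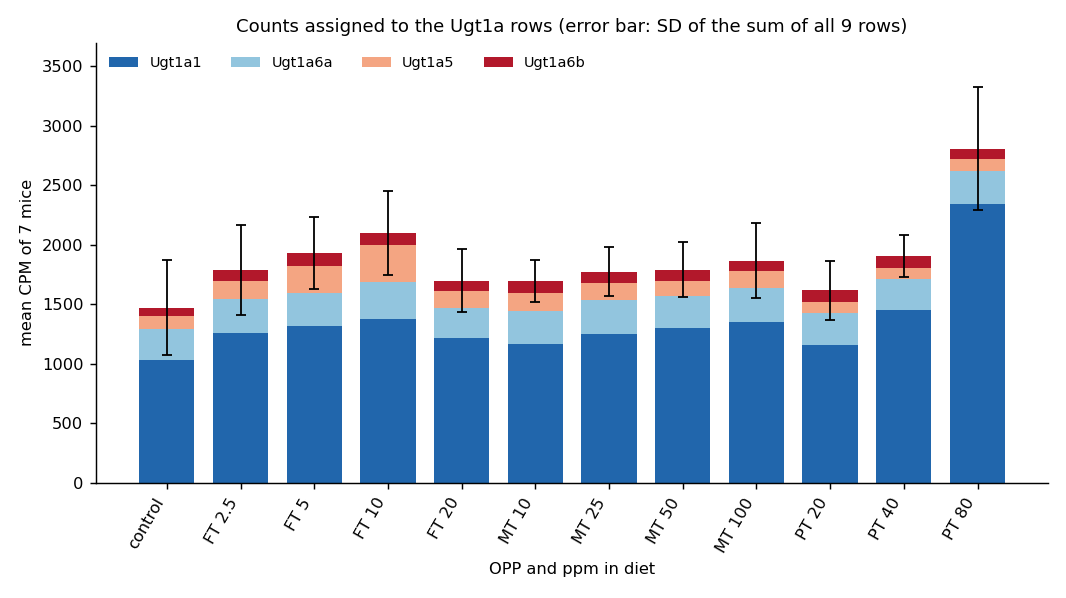
Mean CPM of the 4 most counted Ugt1a rows stacked (vertical axis from 0) for each group of 7 mice, with an error bar for the SD of the sum of all 9 rows. The stack is highest at PT 80 ppm (2809 CPM, SD 518.1) and lowest in control (1473 CPM, SD 396.7), and the Ugt1a5 layer is thickest at FT 10 ppm.

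Since the first exons of the Ugt1a genes have separate promoters, the 250 bases before the annotated start of Ugt1a1 and Ugt1a6a are given from RefSeq (build GRCm38.p6, plus strand), at chr1:88211709-88211958 and chr1:88134559-88134808. In the Ugt1a6a transcript compared above, exons 1 and 2 are noncoding and exon 3 is the first coding exon. The printed Ugt1a6a stretch does not adjoin that coding exon. Capitals mark matches to GTTAAT, a core of HNF1 sites, or to AGTTCA, a core of the repeats bound by nuclear receptors such as CAR and PXR, on either strand.
Ugt1a1: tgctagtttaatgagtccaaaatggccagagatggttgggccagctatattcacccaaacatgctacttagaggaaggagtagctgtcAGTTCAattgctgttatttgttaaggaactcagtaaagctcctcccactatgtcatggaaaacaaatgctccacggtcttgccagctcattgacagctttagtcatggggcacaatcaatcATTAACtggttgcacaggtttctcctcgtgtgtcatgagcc
Ugt1a6a: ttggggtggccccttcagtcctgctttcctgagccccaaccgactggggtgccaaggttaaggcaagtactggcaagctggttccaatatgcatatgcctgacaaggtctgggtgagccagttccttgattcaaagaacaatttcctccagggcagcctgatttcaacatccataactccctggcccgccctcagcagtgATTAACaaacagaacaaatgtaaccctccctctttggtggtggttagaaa
GTTAAT was found at 41 bases before the start of Ugt1a1 and at 50 bases before that of Ugt1a6a, in both cases on the opposite strand, and AGTTCA at 162 bases before Ugt1a1. Windows of 300 bases, up to 50 bases past the start, were searched for 9 of the 10 genes, and GTTAAT was also found in Ugt2a3 and Ugt3a1, and AGTTCA in Ugt2b1, 43 bases past its start. AGGTCA, another core of such repeats, was found in Ugt2b5, Ugt2b35 and Ugt2b36, at 22, 215 and 25 bases before the start. Of 32851 promoters of that length, 7.1% held GTTAAT, 14% AGTTCA and 16.3% AGGTCA. Neither GCGTG, the core bound by the aryl hydrocarbon receptor, nor TGACNNNGC, the core of the antioxidant response element, was found in any of the 9 windows, against 32.4% and 12.4% of all promoters. These matches are letters in a window and not measured binding.

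Below PT 80 ppm a single member was called in any dosed group. Ugt2b35, in the same steroid-conjugating cluster, was 201.6 to 344.1 CPM (median 258.3) in control mice and 127.4 to 222.8 CPM (median 173.9) at FT 10 ppm. Of the 7 FT 10 ppm mice 6 lay below every control, and the ranges overlapped through 1 of the dosed mice. The log2 fold change was -0.48 (SE 0.136, adjusted p = 0.0495 from edgeR), in a comparison where 1.57% of all genes were called, 0.739% as lower. The call was lost under most alternatives, with an adjusted p of 0.0585 under RLE scaling in edgeR. At the next dose, FT 20 ppm, Ugt2b35 was 168.0 to 300.2 CPM and its log2 fold change was -0.26 (adjusted p = 0.9995 from edgeR). At MT 10 ppm, which had the lowest median of all groups, it was 122.8 to 272.7 CPM with a log2 fold change of -0.46 (adjusted p = 0.235 from edgeR). Fitted values of Ugt2b35 were below the control in 10 of the 11 dosed groups, which all share the same 7 control mice.

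In the other 9 dosed groups no member was called by edgeR. The share of all genes called was 0% at FT 5 and 20 ppm, MT 10 and 25 ppm and PT 40 ppm, 0.00960% at FT 2.5, MT 50 and PT 20 ppm, and 0.0768% at MT 100 ppm. At an unadjusted p under 0.05 there were 3 members at FT 2.5 ppm (10.7% of all genes), 3 at FT 5 ppm (7.59%), 1 at FT 20 ppm (3.98%), 1 at MT 10 ppm (9.97%), 1 at MT 25 ppm (5.79%), 1 at MT 50 ppm (3.99%), 2 at MT 100 ppm (13.6%), 0 at PT 20 ppm (5.90%) and 1 at PT 40 ppm (8.51%). FT 10 ppm had 6 at that level (17.7% of all genes), namely Ugt1a1, Ugt1a6a, Ugt2a3, Ugt3a1 and Ugt3a2 with positive and Ugt2b35 with a negative value.

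Ugt1a1 had a fitted value above the control in all 11 dosed groups, again against the same controls. At MT 100 ppm it was 1079 to 1766 CPM (median 1263), all 7 mice above the control median and 1 above the highest control. The log2 fold change was 0.43 (95% interval 0.22 to 0.63, adjusted p = 0.0615 from edgeR). It was called there by DESeq2 (adjusted p = 0.0206), by edgeR fitted to the control and MT mice alone (0.0417), and without control replicate 1 or MT 100 ppm replicate 1 or 7. Against the 3 lower MT doses no member was called by edgeR at MT 100 ppm (0.0288% of all genes were called, and 2 members had an unadjusted p under 0.05), and the log2 fold change of Ugt1a1 was 0.20 (adjusted p = 0.489 from edgeR). FT 20 ppm against the lower FT doses likewise had no member called, with 0% of all genes called and 1 member at an unadjusted p under 0.05. At PT 40 ppm the log2 fold change was 0.44 (adjusted p = 0.298 from edgeR) and none of the 7 mice exceeded the highest control. At FT 10 ppm it was 0.36 (adjusted p = 0.0571 from edgeR), while the Ugt1a sum had 0.46 (adjusted p = 0.0226 from edgeR). Ugt1a5, the neighbour that shares its last exons, accounted for part of that sum. It was 49.8 to 190.0 CPM in control mice and 129.7 to 463.4 CPM at FT 10 ppm, overlapping ranges with a log2 fold change of 1.45 (SE 0.334, adjusted p = 0.0241 from edgeR), and its median share of the locus counts was 6.79% in control mice and 13.1% at FT 10 ppm. With the acute phase level described below in the model, Ugt1a5 had 1.09 and was not called (adjusted p = 0.114 from edgeR), and the call was lost under 6 alternatives in all and kept under 9.

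In the order of group medians, PT 80 ppm was first and the control last for Ugt1a1 (2255 and 883.4 CPM), and PT 40 ppm (1387 CPM) and FT 10 ppm (1351 CPM) came next after PT 80 ppm. For Ugt2b1 the order ran from FT 20 ppm (31.8 CPM) to PT 80 ppm (12.9 CPM), and for Ugt2b35 from PT 80 ppm (301.2 CPM) to MT 10 ppm (167.9 CPM). Of the 110 pairs of neighbouring groups in these orders over the 10 genes, 0 had ranges that did not overlap. The same held for the 110 pairs of a dosed group with the control. Neighbours in such an order have the closest medians, so overlap between them was likely beforehand. The shares over all genes were not computed for either count.

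The 6 members not called in any dosed group, besides Ugt1a6a, had group medians that differed by 1.17 to 1.51 times between the highest and the lowest group. Ugt2a3, which is found in liver and gut, had medians from 611.8 CPM in control to 859.4 CPM at FT 2.5 ppm. Ugt2b5 ran from 1011 to 1230 CPM, Ugt2b36 from 470.0 to 572.8 CPM and Ugt2b34 from 83.1 to 97.4 CPM. Ugt3a1, which uses UDP-N-acetylglucosamine, had medians of 209.4 to 244.6 CPM, and Ugt3a2, which uses UDP-glucose or UDP-xylose, of 15.3 to 23.1 CPM. The probes differ between genes, so the levels of these genes were not compared with one another. The Ugt1a sums and shares carry the same limit. One mouse, PT 80 ppm replicate 1, was the lowest of its group in 5 genes, among them Ugt3a2 (4.82 CPM) and Ugt3a1 (154.1 CPM).

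Matched doses allowed FT to be set beside MT at 10 ppm and beside PT at 20 ppm, 2 pairs in all, and 0% of all genes were called in either. Of the 10 Ugt genes, 0 were called by edgeR and 0 had an unadjusted p under 0.05, a level reached by 7.66% of all genes for FT against MT and 3.40% for FT against PT. Between the O,O-dimethyl esters FT and MT at 10 ppm, Ugt1a1 was 1133 to 1762 and 1023 to 1450 CPM, with a log2 difference of 0.20 (95% interval -0.01 to 0.40, adjusted p = 0.662 from edgeR). Between FT and the O,O-diethyl ester PT at 20 ppm, it was 829.6 to 1437 and 928.7 to 1615 CPM, and the fitted log2 difference, adjusted for the 2 FT mice isolated at the EPA, was 0.18 (95% interval -0.03 to 0.39, adjusted p = 0.9987 from edgeR). Ugt2b35 differed by -0.02 (-0.29 to 0.25) and -0.03 (-0.30 to 0.25) in the same pairs. These intervals allow differences in either direction, and the doses of 80 and 100 ppm had no match in another OPP.

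Genes around the Ugt enzymes were counted in lists that follow the path of a glucuronide. At PT 80 ppm 9.73% of all genes were called higher and 8.89% lower, and the short lists were not tested against these shares. Of 8 regulators, 3 rose at PT 80 ppm, the receptors Nr1i3 (log2 fold change 1.78, adjusted p = 5.14e-08 from edgeR) and Nr1i2 (0.52) and the hepatocyte factor Hnf4a (0.53). Nr1i3 was 141.4 to 325.3 CPM in control mice and 490.1 to 1015 CPM at PT 80 ppm, ranges that did not overlap. Of the 4 genes that supply UDP-glucuronate, 1 fell, Ugdh, whose enzyme oxidises UDP-glucose to UDP-glucuronate (log2 fold change -0.41, adjusted p = 0.0163 from edgeR). That call was lost under 7 alternatives, among them the fit with the acute phase level (-0.28, adjusted p = 0.161 from edgeR), and kept under 23. Against the lower PT doses Ugdh was not called (-0.18). There 13.3% of all genes were called higher, and 2 of the 4 supply genes were, Pgm1 (0.51) and Ugp2 (0.38). Both act before Ugdh on the way to UDP-glucose. At FT 10 ppm the carrier Slc35d1, which brings UDP-glucuronate into the endoplasmic reticulum, fell (-0.43, adjusted p = 0.0495 from edgeR), a call that was lost under 10 alternatives and kept under 6. Of 4 genes that release or use glucuronate and 4 that produce bilirubin, 0 were called at PT 80 ppm.

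Of 7 transporters of glucuronides and other organic anions, 3 rose at PT 80 ppm, where 9.73% of all genes were called higher. Abcc3, the exporter on the blood side, was 3.49 to 11.8 CPM in control mice and 18.6 to 34.4 CPM at PT 80 ppm (log2 fold change 1.87, SE 0.258, adjusted p = 1.05e-07 from edgeR). Slco1a4, an importer, was 4.46 to 17.6 CPM in control mice and 21.9 to 246.1 CPM at PT 80 ppm (3.12, SE 0.302, adjusted p = 1.70e-12 from edgeR). Neither pair of ranges overlapped. The canalicular exporter Abcc2 had a log2 fold change of 0.57 (adjusted p = 6.40e-05 from edgeR), and the other 4 transporters were not called. At MT 100 ppm and FT 10 ppm 0 of the 7 transporters and 0 of the 8 regulators were called. The shares over all genes were 0.0768% and 1.57%.

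Genes known as targets of the same receptors gave a reference, and 5 of 8 were abundant enough to test. At PT 80 ppm, where 9.73% of all genes were called higher, 4 of these rose. They were the PPARα target Cyp4a10 (log2 fold change 7.89), the CAR and PXR targets Cyp2c29 (1.39) and Cyp3a11 (1.12) and the antioxidant gene Nqo1 (1.13). Cyp2b10, Cyp1a1 and Cyp4a14 failed the filter on the median count over all mice, which a gene high in 1 group alone can fail. Cyp2b10 was 0 to 0.167 CPM in control mice, less than 3 counts are worth. It was 0 to 14.1 CPM (median 0.572) at PT 80 ppm. At MT 100 ppm it was 0.489 to 26.5 CPM (median 5.87), with all 7 mice above every control. At MT 100 ppm Cyp2c29 rose from 581.0 to 1557 CPM in control mice to 3503 to 7381 CPM (log2 fold change 2.54, adjusted p = 5.80e-15 from edgeR), and Cyp3a11 had 1.29, while Ugt1a1 had 0.43 and was not called. At FT 10 ppm Cyp2c29 (0.87), Cyp3a11 (0.99) and Cyp4a10 (3.10) rose. These FT 10 ppm calls were lost under 5, 7 and 8 alternatives, and Cyp2c29 changed sign under 1 more. All of them were lost with the acute phase level in the model, where the values were 0.60, 0.86 and 2.63.

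Among all genes, those whose levels followed Ugt1a1 most closely over the 84 mice, after removal of block and laboratory effects, were Slco1a4 (Pearson r = 0.86), Cyp2c54 (0.84) and Nr1i3 (0.84). Within groups these r values were 0.61, 0.62 and 0.60, and all of the points share libraries and normalization. For Ugt2b1 they were Ces3a (0.84), Timm22 (0.81) and Lcp1 (0.80), and for Ugt2b35 Metap1d (0.67), Zfp157 (0.66) and Inca1 (0.63). Among the members, Ugt3a1 and Ugt3a2 had the highest r (0.73) and Ugt1a1 and Ugt2b1 the lowest (-0.54), while Ugt1a1 and Ugt1a6a, for all their shared exons, had 0.16. These are descriptions over the mice and were not tested.

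Acute phase genes, which the liver makes more of in inflammation, differed widely among the controls. Their level was taken as the mean log2(CPM + 1) of Saa1, Saa2, Saa3, Orm1, Orm2, Hp, Lcn2 and Fgb, and the fits with it were added after the data had been seen. It was 7.16 to 12.56 (median 11.18) in control mice and 6.30 to 8.65 (median 6.81) at PT 80 ppm. At FT 10 ppm it was 6.82 to 9.73 (median 7.54) and at MT 100 ppm 7.18 to 9.93 (median 7.90). At PT 80 ppm 6 of the 8 genes fell, with a median log2 fold change of -3.70 over the 8, where 8.89% of all genes were called lower. Of the 10 Ugt genes 5 fell with the acute phase level across mice within groups, and 0 rose, where 14.4% of all genes were called and 6.18% fell. Ugt1a1 had a slope of -0.07 log2 per unit (SE 0.0119, adjusted p = 1.91e-05 from edgeR), and Ugt2a3, Ugt1a6a, Ugt2b5 and Ugt3a2 had slopes from -0.08 to -0.04.

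**Figure D4:**
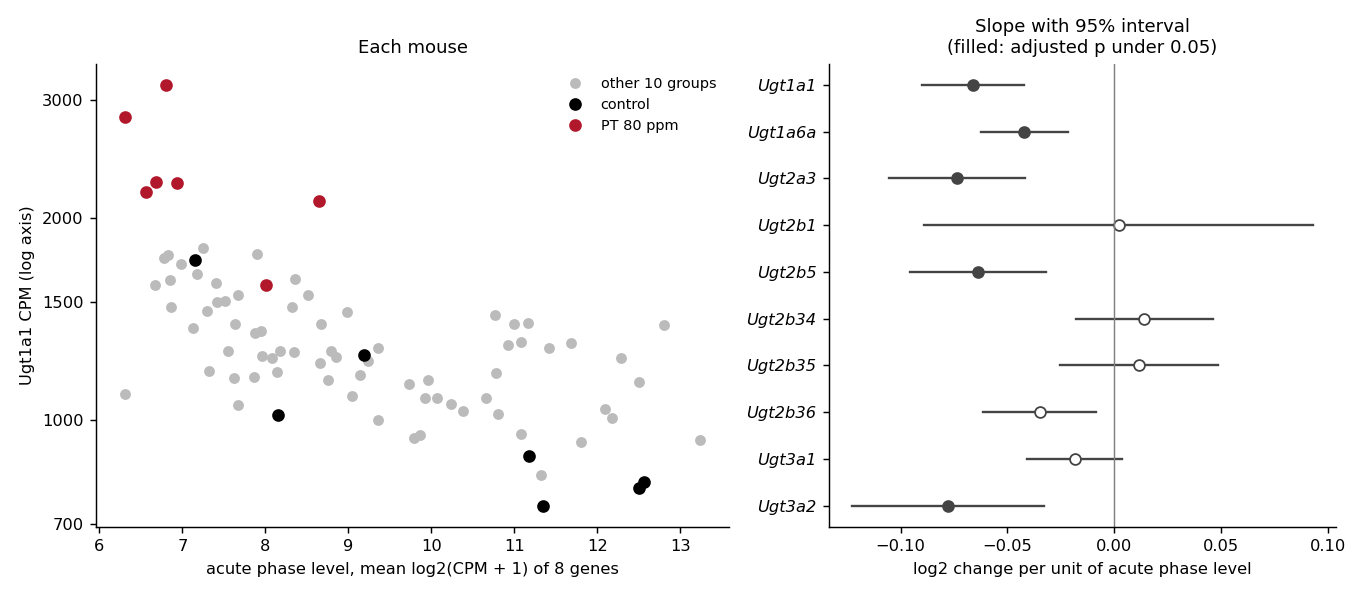
Left, Ugt1a1 in each mouse (vertical log axis, CPM) against its acute phase level (horizontal axis, mean log2(CPM + 1) of 8 genes), with control mice in black, PT 80 ppm in red and the other 10 groups in grey. Right, the slope of each Ugt gene on that level within groups with its 95% interval, filled where the adjusted p was under 0.05, which held for 5 genes, all with negative slopes.

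With the acute phase level in the model, Ugt1a1 at PT 80 ppm had a log2 fold change of 0.92 (SE 0.0963, adjusted p = 1.03e-10 from edgeR) against control and 0.68 (adjusted p = 8.93e-10 from edgeR) against the lower PT doses. Ugt1a1 at MT 100 ppm had 0.29 (adjusted p = 0.226 from edgeR) in that fit. Ugt2b1 at PT 80 ppm kept a log2 fold change of -0.91 but was no longer called (adjusted p = 0.0829 from edgeR), while against the lower PT doses it stayed called (-0.94, adjusted p = 0.0214 from edgeR), and Ugt2b35 at FT 10 ppm had -0.45 (adjusted p = 0.15 from edgeR). Ugt2a3 was called lower at PT 80 ppm than at the lower doses in this fit alone (-0.31, adjusted p = 0.0276 from edgeR).

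Markers of the cells in the pieces were followed as lists, since in bulk liver fewer cells of a type and less RNA per cell cannot be told apart. At PT 80 ppm 9.73% of all genes were called higher and 8.89% lower. Of 5 Kupffer cell and leukocyte markers tested, 4 fell there. The summed level of these markers (6 genes) was 106.3 to 187.4 CPM in control mice and 19.4 to 125.2 CPM at PT 80 ppm. The 6 hepatocyte markers summed to 17671 to 37557 CPM in control mice and 20401 to 35680 CPM at PT 80 ppm, with 2 called higher (Tat and Cps1). Of the 5 pericentral hepatocyte markers 2 were called higher, Cyp2e1 (log2 fold change 0.98) and Slc1a2 (0.47), and 3 were not called, with a median of 0.27 over the 5. Their sum, most of it Cyp2e1, was 7242 to 14753 CPM in control mice and 15570 to 25698 CPM at PT 80 ppm. Of the 5 periportal markers 2 were called higher, Hal (0.43) and Sds (0.69), and 1 lower, Cyp2f2 (-0.37), and they summed to 1119 to 2050 and 1397 to 2573 CPM. The only cholangiocyte marker tested, Spp1, fell. Of the markers of other organs measured, 3 of 4 for pancreas and both for kidney had a median count of 0, and neither of the 2 for intestine did. The intestine markers, of which Fabp2 was the abundant one, summed to 441.5 to 1209 CPM in control mice and 52.2 to 1072 CPM at PT 80 ppm (Fabp2 log2 fold change -0.35, not called). The part of any cell type in the Ugt values was not tested.

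Values of some Ugt genes also differed by laboratory and block, as did those of a large share of all genes. Of the 10 genes 6 differed between EPA and EA isolations (38.7% of all genes were called), with Ugt1a1 lower at the EPA (log2 difference -0.32, adjusted p = 0.00195 from edgeR), Ugt2a3, Ugt3a1 and Ugt3a2 lower, and Ugt2b1 (0.63) and Ugt2b35 (0.33) higher. Ugt1a1 was lower in block 3 (-0.36) and block 4 (-0.40) than in block 1, contrasts with 40.0% and 38.1% of all genes called and 3 members each. Within blocks 1, 3 and 4 taken alone, the PT 80 ppm log2 fold change of Ugt1a1 was 1.00, 1.15 and 1.21 (adjusted p = 0.0031, 4.74e-04 and 6.27e-04 from edgeR), and among EA mice alone it was 1.09. For Ugt2b1 it was -0.18, -1.32 and -0.89 within the blocks, none of them called, and for Ugt2b35 at FT 10 ppm it was -0.26, -0.68 and -0.40, none called.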

How the data were processed

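The authors aligned TempO-Seq reads to mm39 (GRCm39) with STAR, estimated counts per Ensembl gene by expectation maximisation in Partek, which divides ambiguous reads, and deposited these estimated counts. They also deposited adjusted log2 values, entered here as a score because their model had already removed block and isolator effects, and used only as an alternative. Here counts were rounded (18.7% were fractional), genes with a median count above 8 kept (10415), and edgeR 4.0.16 (R 4.3.3) fitted by quasi-likelihood with TMM to all 84 mice, with group, block and isolator as terms. Total counts were 6950381 to 15300589 a mouse, so 3 counts equal 0.196 to 0.432 CPM. Such limits cover counting error only. Alternatives used DESeq2 1.42.0, limma 3.58.1 on log2(CPM + 1) and log2(CPM + 0.5), other filters, scalings, covariates and samples, summed rows and mice left out in turn. The fits with the acute phase level and within blocks were added after the data had been seen. CPM used all counted reads, with the total of each library scaled by its TMM factor (0.846 to 1.13). The value of 3 counts given above used the totals without that scaling. All 10 members were named, and the genes of the pathway, other Ugt and acute phase lists called at PT 80 or MT 100 ppm could be, with the 3 best correlates of each called member. Other genes named at FT 10 ppm, Pgm1 and Ugp2, and the marker genes, were named after their values were seen. The members and lists were chosen with earlier results of these data known. The tests were tried on simulated data. The labels tie each sample to 1 mouse. The paper states that diets were assigned by cage, and the sample labels used here name no cage. Mice that may have shared a cage were treated as independent.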

Additional observations from a re-analysis of the deposited data

Results flagged for a closer look

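Within groups of 7 mice, 5 of the 120 sets of member values held a mouse whose gap to its nearest neighbour, over the range of the group, was above Dixon's 95% critical value, and chance gives about 1 in 20 such sets. Ugt2b1 measured 111.2 CPM in FT 2.5 ppm replicate 7, where the nearest mouse had 32.8 CPM. Ugt2a3 measured 957.4 CPM in MT 50 ppm replicate 4 (nearest 766.8 CPM). Ugt2b34 was low, at 59.7 CPM, in FT 20 ppm replicate 3, the lowest of its group. MT 100 ppm replicate 6, a mouse of block 4 whose RNA was isolated at the EPA, was high in both Ugt2b34 (115.0 CPM, nearest 100.1 CPM) and Ugt2b35 (360.7 CPM, nearest 268.7 CPM). None of these mice belonged to a group in which the gene concerned was called.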

How the results depend on the processing

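The rise of Ugt1a1 at PT 80 ppm kept its direction and its call under every alternative that gave it a value, with log2 fold changes from 0.92 upwards, and 1.06 to 1.21 with single mice left out. The count of members called at PT 80 ppm against control was 2. It was 1 without a filter on low counts, with the control and PT mice alone, and with either limma fit. It was also 1 within block 1, 3 or 4 and with the acute phase level. With single mice left out it was 1 to 2 (without control replicate 7 or PT 80 ppm replicate 3, Ugt2b36 at 0.30 or 0.29 in place of Ugt2b1), at MT 100 ppm 0 to 1, and at PT 80 ppm against the lower doses 2 to 3. Against the lower doses it was 1 within block 1 or 4. Within block 3 Ugt1a1 and Ugt2b35 (0.54, adjusted p = 0.0402 from edgeR) were called there, and Ugt2b1 was not called in any block. The setting with the Ugt2b rows summed tested neither Ugt2b1 nor Ugt2b35 alone. Its counts, 1 in both PT 80 ppm contrasts and 0 at FT 10 ppm, could not include them. At FT 10 ppm the count of members called was 3 with DESeq2, 2 without block and isolator, and 2 with the Ugt1a rows summed, the sum being 1 of these. It was 0 without a filter, with filterByExpr, with the control and FT mice alone, within each block and with the acute phase level. With RLE factors and with limma it was 1, Ugt1a1 in place of Ugt2b35. It was 1 at MT 10 ppm among EA mice alone (Ugt2b35, -0.64), and 1 at MT 100 ppm with DESeq2 and with the control and MT mice alone. An F test over the doses of each OPP on the deposited adjusted values called 7 members for every FT group, 9 for every MT group and 5 for every PT group, with -2.63 for Ugt2b1 at PT 80 ppm. In these values, already adjusted by the authors' model, many values had the opposite direction, among them several of Ugt1a6a, Ugt2b1 and Ugt2b36. Examples were Ugt1a6a at FT 10 ppm (-0.19, against 0.26) and Ugt2b36 at PT 80 ppm (-0.23, against 0.22). Ugt2b1 was reversed at FT 2.5 ppm (-0.92, against 0.54) and MT 100 ppm (-1.38, against 0.07). Ugt2b1 at PT 80 ppm ran from -1.14 to -0.68 with single mice left out, and from -1.15 to -0.74 against the lower doses. Within block 4 alone 2 reference genes changed sign, Cyp2c29 at FT 10 ppm (-0.16) and Nqo1 at PT 80 ppm (-0.35). Of 670 recomputed values of single genes, 571 kept their call and 97 lost it, and the causes were not tested. No paired analysis was possible because the replicate numbers only name mice and the labels pair none across groups.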

Other observations

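Of 12 other Ugt genes listed, 11 were in the count table and 5 passed the filter on low counts. Ugt2b38, the copy with a coding sequence 97.0% identical to that of Ugt2b5, fell at PT 80 ppm, from a median of 36.8 CPM in control mice (highest 88.9) to 4.68 CPM (range 0.408 to 30.1) (log2 fold change -2.20, adjusted p = 6.02e-04 from edgeR). The ranges overlapped, and within blocks 1, 3 and 4 alone the log2 fold changes were -4.53, -2.86 and -0.35. Ugt2b5 itself was 890.0 to 1415 CPM in control mice and 794.1 to 1592 CPM at PT 80 ppm and was not called (log2 fold change 0.05, adjusted p = 0.858 from edgeR). Ugt1a9 rose at PT 80 ppm (1.22, adjusted p = 0.0158 from edgeR) at a level of 0.0817 to 5.56 CPM (median 1.63), against 0.233 to 2.15 CPM (median 0.756) in control mice. The lowest PT 80 ppm mouse lay below what 3 counts are worth (0.196 to 0.432 CPM), and the lowest control lay within that range. The call of Ugt1a9 was lost under 8 alternatives and kept under 21, and with single mice left out the log2 fold change was 0.94 to 1.51, with 2 of these fits losing the call. The Ugt2b rows together were not called at PT 80 ppm (0.07, adjusted p = 0.714 from edgeR).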
